A study of Mus musculus with 6 samples.

Results

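The genes described here are 8 genes of the creatine and calcium cycles by which beige adipocytes can spend ATP as heat without the uncoupling protein UCP1. They were taken by symbol from the deposited table of 54532 genes, and all 8 were found: Ckb, Ckmt2, Gatm, Gamt, Slc6a8, Alpl, Atp2a2 and Ryr2. RNA came from the inguinal white fat depot (iWAT), which lies under the skin of the groin, of old mice, and the study asks what estrogen does to beige adipocytes there. One group of 3 libraries came from estrogen-treated mice after 7 days of cold. The other group of 3 libraries came from vehicle-treated mice after the same cold. Cold was common to both groups, and strain, sex, exact age, hormone dose and route are given by none of the sources used here. Nothing in the labels ties each library to its own mouse, so the p-values rest on the spread between libraries, which may in part be technical.

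In the creatine cycle, a creatine kinase moves a phosphate from ATP onto creatine, and a phosphatase releases it again, so that ATP is used and heat is given off. Creatine itself is either made from arginine, glycine and a methyl group or taken up from blood. In the calcium cycle, the SERCA pump uses ATP to load calcium into the endoplasmic reticulum, and a release channel lets it leak back. Both cycles have been described in mouse beige fat.

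Total counts were 16046601 to 19263623 in estrogen libraries and 19014779 to 20736771 in vehicle libraries. Levels are CPM, the reads of a gene scaled to library size, with library sizes adjusted by edgeR's TMM factors. The adipocyte markers Adipoq, Plin1 and Fabp4 were high in all 6 libraries, with Adipoq at 1214 to 2206 CPM under estrogen and 838 to 1200 CPM under vehicle. Several libraries stood apart in other tissues' transcripts. The 20 skeletal muscle markers summed to 10382 CPM in estrogen replicate 1, against 40.5 to 55.0 CPM in the other estrogen libraries and 45.9 to 135 CPM in vehicle libraries. Of these lower sums, the marker Myl1 alone gave 47.1 and 33.3 CPM in estrogen replicates 2 and 3 and 39.8 to 49 CPM under vehicle. The mean log2 CPM of 12 muscle genes was 8.71 in estrogen replicate 1, 2.4 in vehicle replicate 3 and 0.85 in vehicle replicate 2. It was -0.55 and -0.7 in estrogen replicates 2 and 3 and -0.76 in vehicle replicate 1. Between 3 and 7 of the 20 were at 0 counts in each of the other 5 libraries, and none in estrogen replicate 1. The 6 B cell markers summed to 138 and 84.6 CPM in estrogen replicates 1 and 3, against 4.45 CPM in estrogen replicate 2 and 2.39 to 4.51 CPM under vehicle. The 6 fibroblast and progenitor markers summed to 5239, 8060 and 1045 CPM under estrogen and 14392, 33001 and 11513 CPM under vehicle. In bulk tissue, fewer cells of a type and less RNA per cell cannot be told apart.

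Of the 8 genes, 7 passed the filter on low counts. By edgeR's quasi-likelihood test, 0 of the 7 passed an adjusted p of 0.05, and so did 0 of all 15591 genes tested (0% higher and 0% lower). At an unadjusted p under 0.05, Gatm alone was lower, where 10.9% of all tested genes were lower and 9.49% higher, or 20.4% in either direction. DESeq2 on the same counts also called Gatm alone and gave Ryr2 no adjusted p. It called 2.95% of genes lower and 2.46% higher. These are shares of all 15591 genes, counting those to which it gave no adjusted p. Levels did not overlap between the groups for Gatm and Gamt, which were lower with estrogen, and for Alpl, which was higher. Among all tested genes 14.7% lay lower and 12.8% higher without overlap, which for 7 genes comes to about 1 in each direction. The median log2 fold change, estrogen over vehicle, of the 7 tested genes was -0.26, and that of all tested genes was 0.00.

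**Figure D1:**
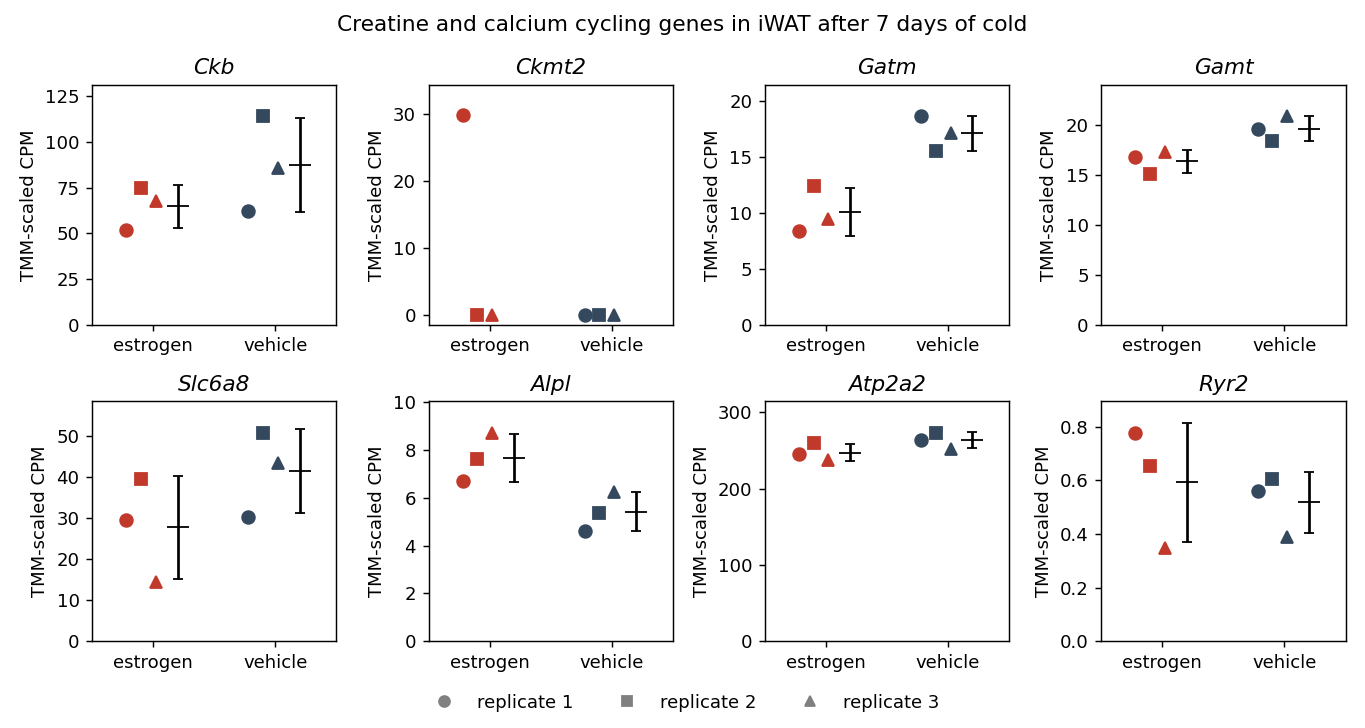
Level of each gene in TMM-scaled CPM (vertical axis, linear) in the 3 estrogen and 3 vehicle libraries, one symbol per replicate number, with the mean and SD as a bar except for Ckmt2. Gatm and Gamt lie lower and Alpl higher in all estrogen libraries, Atp2a2 spans 237 to 273 CPM, and Ckmt2 has reads in estrogen replicate 1 only.

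Creatine synthesis held the largest log2 fold change among the 7 tested genes, that of Gatm. Gatm encodes the arginine:glycine amidinotransferase, which makes the creatine precursor guanidinoacetate in the first and committed step (ENSMUSG00000027199, chromosome 2, 122594467 to 122611303, minus strand, mm10). It was at 8.35, 12.4 and 9.40 CPM in estrogen replicates 1 to 3 and at 18.6, 15.5 and 17.1 CPM in vehicle replicates 1 to 3. Every estrogen library lay under every vehicle library. The means were 10.1 ± 2.13 CPM under estrogen and 17.1 ± 1.56 CPM under vehicle (SD, n = 3 each), from 135 to 190 reads per estrogen library and 307 to 395 per vehicle library. The log2 fold change was -0.77 ± 0.19 (SE), with a 95% interval of -1.21 to -0.32. It did not pass the adjustment over all genes by edgeR (adjusted p = 0.207) and passed it by DESeq2 (adjusted p = 0.0335). Its log2 fold change was -0.66 without the library rich in muscle transcripts. With both libraries rich in B cell markers left out it was -0.45, a value that rests on 1 estrogen library, assumed to vary like the vehicle libraries. Over all alternatives the adjusted p ran from 0.0335 by DESeq2 to 0.535 in that last setting.

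Gamt encodes guanidinoacetate methyltransferase, which adds the methyl group that completes creatine (ENSMUSG00000020150, chromosome 10, 80258151 to 80261012, minus strand, mm10). Its level was 16.8, 15.1 and 17.3 CPM under estrogen and 19.6, 18.4 and 20.9 CPM under vehicle. Again no estrogen library reached the lowest vehicle library, but the step between the groups was small. The log2 fold change was -0.26 ± 0.13 (SE; 95% interval -0.56 to 0.04; edgeR adjusted p = 0.282). Gamt stood above Gatm per kilobase of gene in every library, by 4.18, 2.53 and 3.83 times with estrogen and by 2.19, 2.46 and 2.54 times with vehicle. The ratio in estrogen replicate 2 fell within the vehicle range, so these ratios overlapped between the groups.

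The genes that supply the substrates of this synthesis were described as a list of 9, of which 8 were tested and 0 passed in either direction. Their median log2 fold change was 0.08, with 4 positive and 4 negative. Oat, the ornithine aminotransferase that handles the ornithine left by the Gatm reaction, was at 126 ± 11.1 CPM under estrogen and 161 ± 5.79 CPM under vehicle (log2 fold change -0.36, edgeR adjusted p = 0.208). Shmt1, a serine hydroxymethyltransferase that makes glycine, was at 9.92 ± 2.36 CPM and 6.64 ± 1.08 CPM in the same order (0.58, adjusted p = 0.235). Both of these had groups that did not overlap, 1 lower and 1 higher among the 8 tested. Among all tested genes 14.7% lay lower and 12.8% higher without overlap. Arg1, the arginase that competes for arginine and is also a macrophage gene, ranged from 1.81 to 139 CPM under estrogen and from 85.7 to 369 CPM under vehicle, an overlapping spread. The 4 macrophage markers summed to 186 to 558 CPM under estrogen and 753 to 1022 CPM under vehicle, and their part in the Arg1 values was not tested.

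Slc6a8 encodes the creatine transporter, the uptake route into fat cells (ENSMUSG00000019558, chromosome X, 73673150 to 73682502, plus strand, mm10). It was at 29.5, 39.5 and 14.5 CPM under estrogen and at 30.4, 50.9 and 43.4 CPM under vehicle. Estrogen replicate 3 was low, vehicle replicate 2 was high, and the groups overlapped. The log2 fold change of -0.58 ± 0.36 (SE) had a 95% interval of -1.41 to 0.26 (edgeR adjusted p = 0.377). It depended on single libraries, as it was -0.27 without estrogen replicate 3, -0.92 without estrogen replicate 2 and, with 1 estrogen library remaining, -0.06 without estrogen replicates 1 and 3. Estrogen replicate 3 also had the lowest and vehicle replicate 2 the highest sum of fibroblast and progenitor markers, and the part of these cells in the Slc6a8 values was not tested. Of the other plasma membrane carriers that move creatine, Slc16a12 had a log2 fold change of 0.01 and Slc16a9 of -0.62, and neither passed. In the list of 5 other creatine genes, 4 were tested, 0 passed and the median log2 fold change was 0.40, or -0.57 without estrogen replicate 1, which held nearly all reads of Ckm.

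Among the creatine kinases, Ckb was the form found in all 6 libraries. It encodes the brain-type cytosolic kinase, which in mouse thermogenic fat has been located to mitochondria as part of the creatine cycle, and which in rat uterus is long known as an estrogen-induced protein (ENSMUSG00000001270, chromosome 12, 111669361 to 111672338, minus strand, mm10). Its level was 51.9, 74.5 and 67.9 CPM under estrogen and 62.2, 114 and 85.7 CPM under vehicle. Vehicle replicate 2 was high, and vehicle replicate 1 lay within the estrogen range. With means of 64.8 ± 11.6 and 87.2 ± 25.9 CPM in estrogen and vehicle libraries (SD, n = 3 each), the log2 fold change was -0.43 ± 0.24 (SE), and its 95% interval was -1.0 to 0.14 (edgeR adjusted p = 0.336). That interval, from all 6 libraries and before adjustment over genes, allows a fold change of 0.501 to 1.1. Without vehicle replicate 2 the log2 fold change was -0.19, and without vehicle replicate 1 it was -0.62. The pseudogene Ckb-ps1 had 0 counts in all libraries.

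Ckmt2 encodes the sarcomeric mitochondrial creatine kinase, which is abundant in striated muscle and has also been tied to the creatine cycle of beige fat (ENSMUSG00000021622, chromosome 13, 91853387 to 91876885, minus strand, mm10). It had 574 reads in estrogen replicate 1 and 0 in estrogen replicates 2 and 3 and in vehicle replicates 1 to 3. Estrogen replicate 1, at 29.8 CPM, is at least 142-fold higher than the limit of 3 counts in any of the other 5 libraries. That limit, for counting error only, is 0.196 and 0.209 CPM in estrogen replicates 2 and 3 and 0.130 to 0.152 CPM under vehicle. Estrogen replicate 1 was also the library with muscle transcripts, and no comparison between groups was made for Ckmt2.

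Acta1 and Ckm were read beside it in every library. Acta1, the skeletal muscle actin, had 31571 reads in estrogen replicate 1, 25 and 14 in estrogen replicates 2 and 3, and 27, 103 and 358 in vehicle replicates 1 to 3. Ckm, the muscle cytosolic creatine kinase, had 12509 reads in estrogen replicate 1, 0 in both other estrogen libraries and 0, 13 and 117 in vehicle replicates 1 to 3. Per kilobase, Ckm stood 11.1 times above Ckmt2 in estrogen replicate 1. Both muscle kinases together with Ckb gave 261 CPM per kilobase of creatine kinase there, of which Ckb was 6.89%, whereas Ckb was 94.4 to 100% in the other 5 libraries. The other mitochondrial kinase, Ckmt1, had 1 read in estrogen replicate 2, 1 in vehicle replicate 3 and 0 elsewhere.

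Ucp1, the uncoupling protein of thermogenic fat, was at 696, 1754 and 10.2 CPM in estrogen replicates 1 to 3 and at 907, 589 and 333 CPM in vehicle replicates 1 to 3. The library highest in Ucp1, estrogen replicate 2, had no Ckmt2 read. A share of 5.65% of the exon bases of Ckmt2 is also annotated to a gene on the other strand, and whether the counting used strand is unknown.

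**Figure D2:**
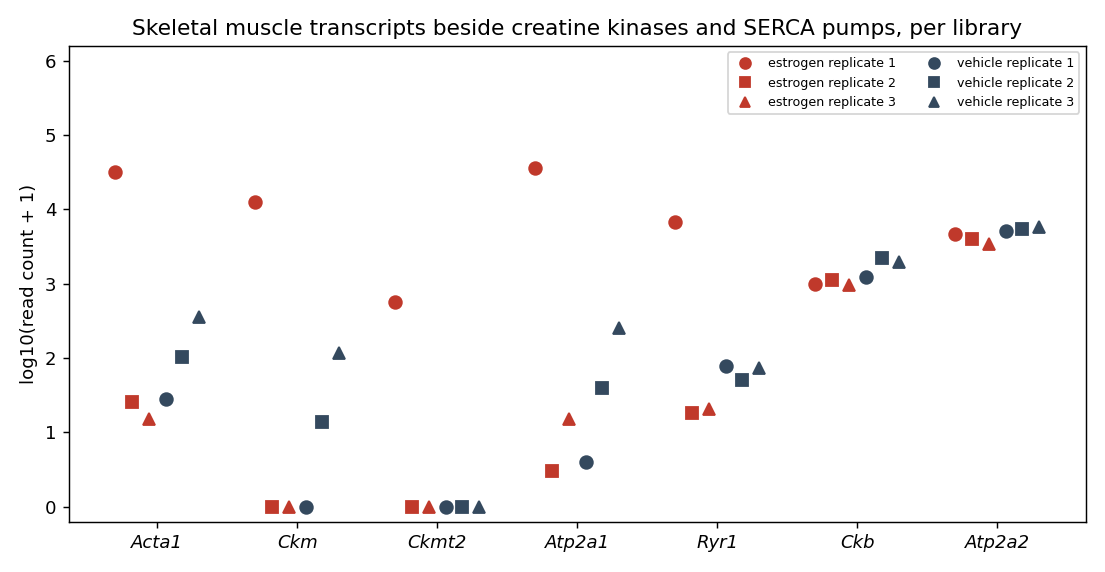
Read counts per library as log10(count + 1) for muscle transcripts (Acta1, Ckm, Atp2a1, Ryr1) beside Ckmt2, Ckb and Atp2a2, red for estrogen and blue for vehicle. Estrogen replicate 1 holds 31571 reads of Acta1 and 574 of Ckmt2, while its unscaled counts of Ckb and Atp2a2 lie within the range of the others. Scaled to library size, Ckb was lowest in estrogen replicate 1, at 51.9 CPM against 62.2 to 114 CPM elsewhere.

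Alpl encodes the tissue-nonspecific alkaline phosphatase, which in mouse thermogenic fat hydrolyses phosphocreatine and so closes the cycle (ENSMUSG00000028766, chromosome 4, 137741733 to 137796384, minus strand, mm10). It was at 6.69, 7.60 and 8.71 CPM under estrogen and 4.62, 5.36 and 6.25 CPM under vehicle. All estrogen libraries lay above all vehicle libraries, on 116 to 129 and 91 to 144 reads per library. The means were 7.66 ± 1.01 CPM under estrogen and 5.41 ± 0.813 CPM under vehicle. The log2 fold change of 0.50 ± 0.22 (SE) had a 95% interval of -0.01 to 1.01 (edgeR adjusted p = 0.250, DESeq2 adjusted p = 0.199). It stayed between 0.40 and 0.61 over all alternatives. Neutrophils also express an alkaline phosphatase of this type in humans, and the 4 neutrophil markers summed to 24.2 to 29.3 CPM under estrogen and 29.6 to 127 CPM under vehicle. The part of these cells in the Alpl values was not tested. Phospho1, another phosphatase of the creatine list, was at 4.77, 7.46 and 2.65 CPM under estrogen and 3.66, 2.78 and 2.13 CPM under vehicle, with overlapping groups.

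The promoters of the genes that led the creatine results are shown as the 250 bases before the RefSeq start (build GRCm38.p6, the same assembly as mm10, minus strand, 5′ to 3′). They are Gatm, the gene of smallest p, Alpl, which has 2 listed starts and lay on the higher side with estrogen, and Ckb, the gene with an estrogen history. Capitals mark GGTCA, the half-site of the estrogen response element, CCAAT, and TATAAA, each searched on both strands, and no match overlapped another.
Gatm, chr2:122611278-122611527: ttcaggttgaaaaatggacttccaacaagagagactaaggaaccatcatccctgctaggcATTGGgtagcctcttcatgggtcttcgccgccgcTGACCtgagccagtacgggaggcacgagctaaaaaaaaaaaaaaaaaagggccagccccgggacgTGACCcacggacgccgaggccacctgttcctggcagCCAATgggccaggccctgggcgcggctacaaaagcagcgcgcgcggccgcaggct
Alpl distal start, chr4:137796385-137796634: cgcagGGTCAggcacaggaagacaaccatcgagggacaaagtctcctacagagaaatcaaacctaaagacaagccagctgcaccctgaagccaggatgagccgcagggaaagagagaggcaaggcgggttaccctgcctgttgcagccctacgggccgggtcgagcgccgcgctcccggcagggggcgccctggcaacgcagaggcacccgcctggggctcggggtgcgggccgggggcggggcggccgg
Alpl proximal start, chr4:137766476-137766725: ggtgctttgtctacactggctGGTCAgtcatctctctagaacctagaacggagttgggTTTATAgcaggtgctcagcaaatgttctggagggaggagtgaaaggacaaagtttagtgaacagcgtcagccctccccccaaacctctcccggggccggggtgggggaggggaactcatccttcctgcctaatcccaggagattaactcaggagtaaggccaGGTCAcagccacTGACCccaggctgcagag
Ckb, chr12:111672339-111672588: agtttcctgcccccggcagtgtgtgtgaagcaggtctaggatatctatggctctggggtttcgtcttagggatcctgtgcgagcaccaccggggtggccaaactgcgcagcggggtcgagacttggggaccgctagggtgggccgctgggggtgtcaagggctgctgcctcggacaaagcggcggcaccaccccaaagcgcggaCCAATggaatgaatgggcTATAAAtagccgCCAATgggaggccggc
The Gatm window held 2 GGTCA half-sites, the distal Alpl window 1, the proximal Alpl window 3 and the Ckb window 0. Of the windows not shown, that of Gamt, which was also lower without overlap, held 0. Those of Ckmt2 and Ryr2 held 0 and 1. Of 32851 starts, 35.2% held at least 1 half-site in the same length and 8.16% held 2 or more. The full palindrome, GGTCA and TGACC with any 3 bases between, was in none of the windows of the 6 genes with a listed start, and in 0.0639% of all starts. The Ckb window had TATAAA once, as did the proximal Alpl window (12.4% of all starts hold it). CCAAT was at 2 places in the Ckb window and in the Gatm window (33.8% of all starts hold it at least once and 10.1% hold 2 or more). These matches are letters in a window and say nothing about the binding of a factor.

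On the calcium side, the pump gene was the steadiest of the 8. Atp2a2 encodes SERCA2, the pump of the beige fat calcium cycle (ENSMUSG00000029467, chromosome 5, 122453513 to 122502225, minus strand, mm10). Its level was 245, 259 and 237 CPM under estrogen and 264, 273 and 252 CPM under vehicle. The groups overlapped, with means of 247 ± 11 CPM under estrogen and 263 ± 10.3 CPM under vehicle. The root mean square spread of its log2 CPM over the 6 libraries was 0.067, and 1.40% of tested genes had a smaller one. The log2 fold change was -0.09 ± 0.12 (SE; edgeR adjusted p = 0.681), and the 95% interval of -0.37 to 0.19 allows a fold change from 0.773 to 1.14. Over all alternatives it stayed between -0.13 and -0.01. Counts are per gene, so the ubiquitous SERCA2b form of the calcium cycle and the SERCA2a form of slow muscle and heart were not told apart.

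Ryr2 encodes the ryanodine receptor paired with SERCA2 in the beige fat cycle (ENSMUSG00000021313, chromosome 13, 11553102 to 12106945, minus strand, mm10). It had 15, 10 and 5 reads with estrogen and 11, 12 and 9 with vehicle, over a gene model of 28790 bases. The groups overlapped widely, and estrogen replicate 3 was the lowest. The log2 fold change of 0.22 ± 0.44 (SE) had a 95% interval of -0.83 to 1.26 (edgeR adjusted p = 0.802) and was -0.04 without estrogen replicate 1. That interval allows a fold change from 0.563 to 2.39, so a difference of that size is not excluded with these few reads and 3 libraries per group. The 4 cardiac muscle markers, of the tissue where Ryr2 is best known, summed to 0.557 to 1.57 CPM under estrogen and 0.354 to 0.711 CPM under vehicle, with Nppa and Myl7 at 0 in all 6 libraries. Per kilobase, Atp2a2 stood 1489, 1873 and 3228 times above Ryr2 in estrogen libraries and 2237, 2127 and 3057 times in vehicle libraries.

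Within the pump family, Atp2a2 made up 86.5 and 76.5% of the SERCA transcripts per kilobase in estrogen replicates 2 and 3 and 81.1 to 89.7% with vehicle. In estrogen replicate 1 its share was 6.83%, since Atp2a1, the pump of fast skeletal muscle, reached 539 CPM per kilobase there against 0.0377 and 0.280 in the other estrogen libraries and 0.0438 to 3.19 with vehicle. Atp2a3, the pump of blood and lymphoid cells, was at 53.5, 35.0 and 61.7 CPM under estrogen and 26.0, 29.0 and 34.2 CPM under vehicle. The groups did not overlap, and the log2 fold change was 0.75 ± 0.22 (edgeR adjusted p = 0.207, DESeq2 adjusted p = 0.0474). The B cell markers were high in the same estrogen replicates 1 and 3. With both left out, which leaves 1 estrogen library at 35.0 CPM, the log2 fold change of Atp2a3 was 0.24. The part of B cells in the Atp2a3 values was not tested.

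The IP3 receptors were far more abundant than Ryr2. The IP3 receptors Itpr1, Itpr2 and Itpr3, which open on hormone signals, were at 2.60 to 3.49, 1.53 to 2.93 and 3.26 to 4.55 CPM per kilobase with estrogen. With vehicle they were at 2.54 to 3.36, 2.01 to 2.47 and 2.54 to 4.4 CPM per kilobase. Ryr2 was at 0.0121 to 0.0270 CPM per kilobase with estrogen and 0.0136 to 0.0211 with vehicle, or 0.102 to 0.234% of the summed release channels in all 6 libraries. Ryr1, the skeletal muscle channel, was at 16.2 CPM per kilobase in estrogen replicate 1, 0.0510 and 0.0638 in estrogen replicates 2 and 3, and 0.116 to 0.179 with vehicle. The groups of each IP3 receptor overlapped, with log2 fold changes of 0.01 for Itpr1, 0.10 for Itpr2 and 0.15 for Itpr3, none past the test.

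**Figure D3:**
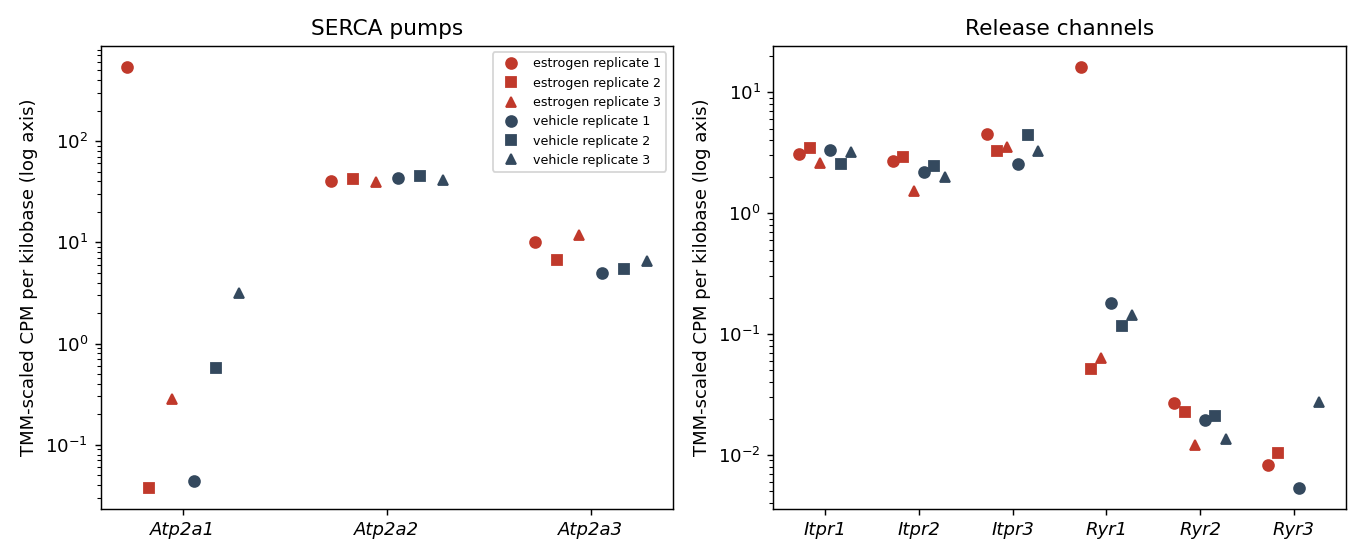
Level per kilobase of gene (TMM-scaled CPM per kilobase, log axis) of the SERCA pumps (left) and the release channels (right), red for estrogen and blue for vehicle, with libraries at 0 not drawn. Atp2a2 spans 39.0 to 44.9 and Ryr2 0.0121 to 0.0270 over all libraries, and Atp2a1 and Ryr1 stand high in estrogen replicate 1.

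Of the 6 measured regulators of the pump, Sln, Pln and Mrln were too low to test. Sln, sarcolipin, had 16 reads in estrogen replicate 1 and 0 in the other 5 libraries, and Pln, phospholamban, had 4 to 6 reads with estrogen and 0 to 4 with vehicle. Nnat, neuronatin, a small membrane protein that binds SERCA, was at 50.2, 28.6 and 5.85 CPM under estrogen and 52.5, 112 and 157 CPM under vehicle. The groups did not overlap but lay close at estrogen replicate 1 and vehicle replicate 1, and the log2 fold change was -1.92 ± 0.72 (edgeR adjusted p = 0.216). In the list of SERCA pumps and regulators 5 of 8 measured genes were tested and 0 passed in either direction.

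Of the other calcium lists, the 17 release channels and partners (16 tested), the 4 store proteins (3 tested), the 5 genes of store-operated entry, the 8 mitochondrial calcium genes, the 7 plasma membrane calcium genes (3 tested) and the 7 upstream receptors and phospholipases had 0 members past the edgeR threshold. Their median log2 fold changes were 0.10, 1.04, -0.25, 0.01, -0.68 and 0.25 in that order, and that of the SERCA list was 0.09. Without estrogen replicate 1, rich in muscle transcripts, the medians of the store proteins, the release channels and the SERCA list were -0.45, -0.03 and -0.08. Casq2, the cardiac calsequestrin and the median of the store proteins, was at 0.19 without that library. Calr, calreticulin, the calcium-binding chaperone of the endoplasmic reticulum, was at 404 ± 37.2 CPM under estrogen and 576 ± 52.2 CPM under vehicle (log2 fold change -0.51, edgeR adjusted p = 0.207, DESeq2 adjusted p = 0.0264). Stim1, the sensor that reports an empty store, was at 122 ± 6.70 CPM under estrogen and 92.8 ± 3.12 CPM under vehicle (0.40, edgeR 0.207 and DESeq2 0.0246 as adjusted p). Its relative Stim2 lay the other way, at 25.7 ± 2.07 CPM under estrogen and 33.6 ± 4.36 CPM under vehicle (-0.38). For all 3 of these genes, which were named for their small p, the groups did not overlap. Among all tested genes 14.7% lay lower and 12.8% higher without overlap.

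Mcub, the subunit that restrains the mitochondrial calcium uniporter, was at 8.55, 9.17 and 2.65 CPM under estrogen and 30.0, 22.7 and 13.5 CPM under vehicle (log2 fold change -1.69 ± 0.48, edgeR adjusted p = 0.207, DESeq2 adjusted p = 0.0219). Every estrogen library lay under every vehicle library, as did the summed macrophage markers, whose part in the Mcub values was not tested. The pore subunit Mcu had a log2 fold change of -0.17 and overlapping groups. Atp2b1, a calcium pump of the plasma membrane, was at 49.1 ± 12.8 CPM under estrogen and 78.7 ± 7.93 CPM under vehicle (-0.68, edgeR adjusted p = 0.207). Adra1a, an adrenergic receptor upstream of calcium release, was at 30.3, 42.6 and 16.5 CPM under estrogen and 26.5, 19.9 and 19.6 CPM under vehicle, with overlapping groups. In its list the smallest p belonged to Plcb4 (log2 fold change 0.44), Adra1d (0.55), Plcg1 (0.25) and Adra1b (-0.72), none past the edgeR test. Calm2, of smallest p among the release channels and partners, had a log2 fold change of -0.46 (edgeR adjusted p = 0.207). Several partners were high in estrogen replicate 1 alone, among them Casq1, the muscle calsequestrin, at 111 CPM there against 0.279 to 2.82 CPM elsewhere, and Jph2, junctophilin, at 64.6 against 1.88 to 4.65 CPM.

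The phosphotransfer genes carry ATP and ADP between mitochondria and kinases. Of 16 measured, 15 were tested, 9 had a positive and 6 a negative log2 fold change, where 50.3% of all tested genes were positive. Their median was 0.29, and 0 passed by edgeR. Groups did not overlap for 8 of the 15 on the higher side and 1 on the lower side, where 12.8% and 14.7% of all tested genes did so. The 10 adipocyte markers summed to 33981, 33653 and 58461 CPM under estrogen and 29243, 23608 and 34616 CPM under vehicle, and their part in these values was not tested. Vdac1, the outer membrane channel to which the mitochondrial kinase docks, was at 319 ± 31.8 CPM under estrogen and 220 ± 29.0 CPM under vehicle (log2 fold change 0.53, edgeR adjusted p = 0.207, DESeq2 adjusted p = 0.0286). Slc25a4, an ATP/ADP carrier that is also the main form of muscle, was at 405, 287 and 279 CPM under estrogen and 240, 233 and 213 CPM under vehicle (0.50, edgeR adjusted p = 0.212), and at 0.30 without estrogen replicate 1.

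**Figure D4:**
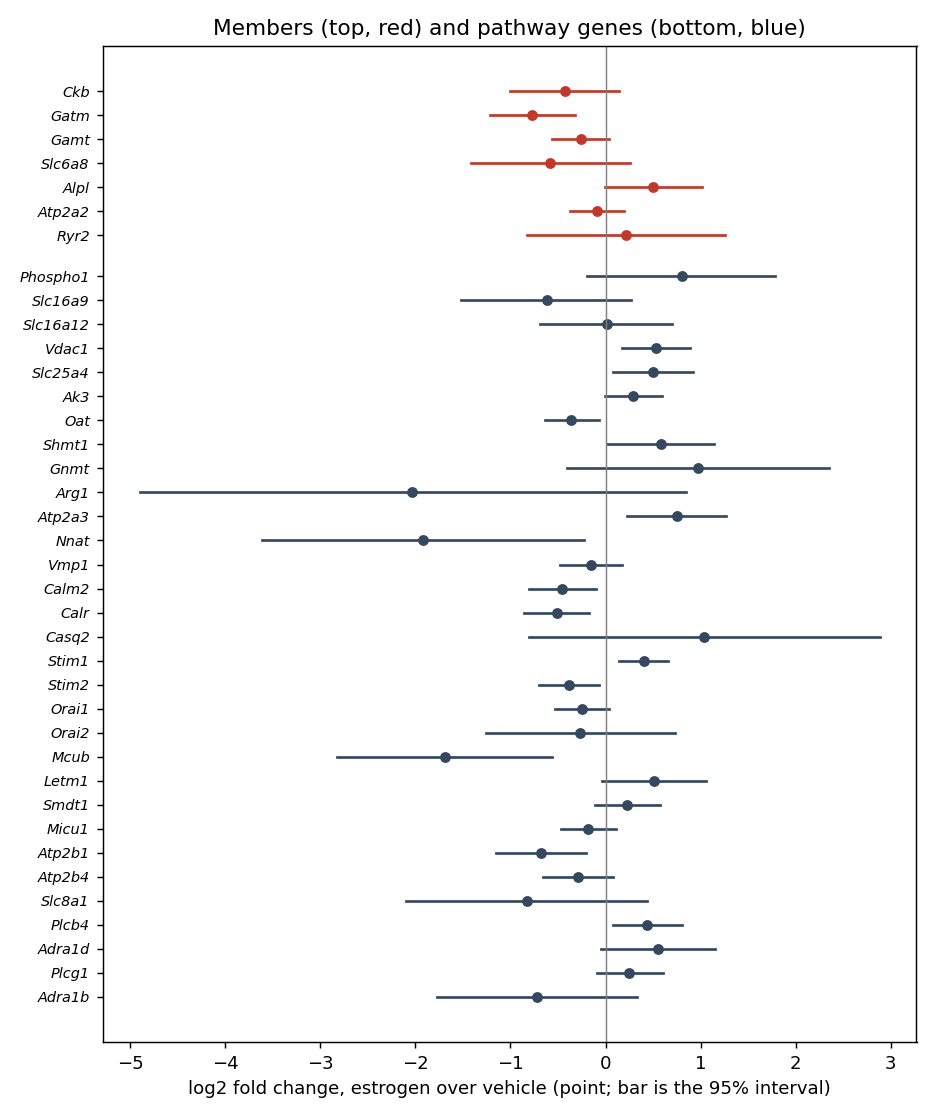
Log2 fold change, estrogen over vehicle, with its 95% interval, for the 7 tested genes of the 2 cycles (top, red) and for the pathway genes of smallest p in each list (bottom, blue), leaving out 6 genes whose reads come mainly from estrogen replicate 1 and 1 gene not reported here. The intervals of several genes, among them Gatm, Vdac1, Calr and Mcub, leave out 0 before adjustment. The interval of Atp2a2 is narrow around 0, and none of the genes passed adjustment by edgeR.

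Per kilobase of gene, the order of the 8 genes was similar in both groups. Atp2a2 was highest, at 40.6 ± 1.81 CPM per kilobase with estrogen and 43.2 ± 1.70 with vehicle, followed by Ckb at 22.4 ± 4.01 and 30.1 ± 8.93, and Gamt at 11.4 ± 0.800 and 13.6 ± 0.864 in the same order of groups. Next came Slc6a8 at 5.34 ± 2.42 and 7.98 ± 1.99 and Gatm at 3.35 ± 0.708 and 5.70 ± 0.519, whose ranges overlapped in both groups. Alpl followed at 1.90 ± 0.251 with estrogen and 1.34 ± 0.202 with vehicle. Apart from Ckmt2, Ryr2 was the lowest at 0.0206 ± 0.00768 with estrogen and 0.0180 ± 0.00395 with vehicle. Within each group no other neighbours in this order overlapped.

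The genes whose profile over the 6 libraries lay closest to each of the 7 tested genes were found by the root mean square distance of mean-centred log2 CPM, over 12029 genes (12030 for Ryr2). For Gatm the nearest were Aph1c (0.102), Pcyox1l (0.119) and Rbbp8 (0.150), where the median distance was 0.496. For Slc6a8 they were Adamts7 (0.099), P2ry6 (0.129) and Pdgfd (0.130), and for Ckb they were Ccdc126 (0.090), Rac3 (0.095) and Pde3a (0.098). Gamt lay nearest to Rttn (0.035), Alpl to Txnl4b (0.036), Atp2a2 to Rab8a (0.024) and Ryr2 to Mfap3l (0.099). With this many genes and 6 libraries some close profiles occur for any gene.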

How the data were processed

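RNA sequencing of 6 iWAT libraries, 3 estrogen and 3 vehicle, was analysed from 1 table. The values the authors deposited are whole read counts for each gene, before any scaling, beside the gene length in bases. Reads were aligned with HISAT2 and counted with featureCounts on mm10, per the submitters' processing notes. Their versions, and the settings for strand and multi-mapping reads, are given by none of the sources used here. Groups and replicate numbers came from the titles.

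Counts were filtered with filterByExpr (15591 genes kept), TMM-scaled and compared by the quasi-likelihood test of edgeR, with p-values adjusted over every tested gene by Benjamini-Hochberg and a threshold of 0.05 (R 4.3.3, edgeR 4.0.16). SE values come from the F statistic and 95% intervals from the t quantile of its degrees of freedom. CPM per kilobase used the deposited gene length. Total counts were 16046601 to 20736771, and 3 counts, the floor used, equal 0.130 to 0.209 TMM-scaled CPM. Intervals on counts cover counting error only. Replicates all differed by more than sampling noise (chi-square per degree of freedom 41.7 to 88.6).

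The 8 genes and the lists were chosen with earlier results of these data known, so lists are described by counts and medians, with no list test. The text names the 8 genes, Acta1, Ckm, Ucp1, up to 4 list members of smallest p, and the 3 nearest profiles per gene (mean log2 CPM of at least 1, no predicted model). Further list members, such as Adra1a, Mcu, Sln, Pln and the IP3 receptors, were named after their values were seen. Of the listed symbols, Strit1 and Stimate were not matched. One phosphotransfer gene that the rule names is not reported here. Alternatives were other scalings, filters, DESeq2 1.42.0, limma-voom 3.58.1, robust dispersions, a replicate block, a muscle covariate and leaving out libraries. Exon overlaps came from GENCODE M21, on the same build, in which all 8 genes have the deposited coordinates, and promoter sequences came from RefSeq.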

Additional observations from a re-analysis of the deposited data

How the results depend on the processing

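None of the 7 tested genes passed adjustment under any edgeR or limma-voom setting, and the count of these genes called was 1 by DESeq2 (Gatm). Over all 15591 tested genes DESeq2 called 844 (2.46% higher and 2.95% lower), against 0 by edgeR. Of the 86 pathway genes 74 were tested, and DESeq2 called 5 of these, 3 higher and 2 lower. Leaving out single libraries gave 0 to 13 genes over all genes (13 without estrogen replicate 2) and 0 among the 8 genes and the pathway genes, and leaving out both estrogen libraries high in B cell markers, which leaves 1 estrogen library assumed to vary like the vehicle libraries, gave 1 over all genes. The list medians without estrogen replicate 1 were also computed after seeing the data, and the mitochondrial calcium median, 0.01, was then -0.01. Of the alternative log2 fold changes of named genes, 685 kept direction and side of the threshold, 6 passed it newly, all by DESeq2, and 23 changed sign. The cause of the gap between DESeq2 and edgeR was not tested.

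The difference of the summed muscle markers, estrogen minus vehicle, ranged from -32.3 to 5139 CPM on leaving out single libraries, which was chosen after seeing the data, and it was -32.3 without estrogen replicate 1. Muscle genes changed sign with that library: Ckm ranged from -8.17 to 9.33, Atp2a1 from -3.04 to 9.19, Ryr1 from -1.36 to 5.79 and Casq1 from -1.63 to 5.35 on leaving out single libraries. Without both estrogen libraries high in B cell markers they were at -8.25, -5.02, -1.51 and -1.11. With the muscle covariate they were at -5.75, -0.23, -0.02 and -0.03. Ryr2 ranged from -0.04 to 0.47 and Orai2 from -0.93 to 0.01 on leaving out single libraries. Slc16a12, at 0.01, was at -0.01 without a low count filter and by limma-voom, -0.02 with the block, -0.17 with the muscle covariate, -0.55 without both estrogen libraries high in B cell markers, and -0.30 to 0.22 on leaving out single libraries.

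With the replicate number as a block, 0 genes passed over all genes, Gatm was at -0.78 and Atp2a1 at -0.55. Same-numbered libraries deviated with r of -0.12, 0.16 and 0.29 across genes, and not every library correlated best with its own number. The highest correlation between the groups was that of the libraries numbered 3. Deviations centred within groups of 3 cannot decide whether libraries were paired, and the labels name no pairing. The number 2 of the titles joins libraries whose descriptions carry unlike numbers, while numbers 1 and 3 join libraries with like numbers. Depth limits Ryr2 (5 to 15 reads) and Ckmt2 (0 reads in 5 libraries).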

Other observations

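Some marker transcripts had few reads in libraries where other markers of the same cells were high. In estrogen replicate 1, with Tnnt3, the fast muscle troponin T, at 764 CPM, its partner Tnnc2, the fast muscle troponin C, had 1 read. Of the exon bases of Tnnc2, 74.0% are also annotated to Ube2c on the other strand. Tagln, an abundant smooth muscle gene, was at 0.627 to 1.37 CPM with estrogen and 1.07 to 1.69 CPM with vehicle, while Myh11 of the same cells was at 36.1 to 45.7 and 23.5 to 46.9 CPM. Of its exon bases 67.9% are shared with Pcsk7 and a predicted gene on the other strand. The phosphotransfer gene Nme3 shares 99.7% of its exon bases with Mapk8ip3 on the other strand and Mrps34 on the same strand. It had 0 reads in every library. Among the 8 genes the shared part was 5.65% for Ckmt2, 1.36% for Atp2a2 and 0 for the other 6. Tnnc2, Tagln and Nme3 were chosen after their values were seen, and the part of shared exon bases in their counts was not tested.

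The 8 thermogenic adipocyte markers summed to 1341, 3074 and 394 CPM in estrogen replicates 1 to 3 and 1641, 1151 and 745 CPM in vehicle replicates 1 to 3. Over that range Atp2a2 stayed between 237 and 273 CPM.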
